A study of Mus musculus with 6 samples.

Results

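The complement genes C1qa, C1qb, C1qc, C3, C4b, Serping1, C3ar1 and C5ar1 were taken by their symbols from the gene list of the deposited UMI matrix. All 8 symbols were found, each once, among 32285 gene IDs. UMIs are molecular tags, so that each captured RNA molecule is counted once. The matrix came from live cells of mouse brain cortex, sorted after mature neurons had been depleted, and read with 10× 3′ single-cell RNA sequencing. The 6 groups were the ipsilateral (stroke) and the contralateral cortex 1, 12 or 24 h into a permanent block of the middle cerebral artery (pMCAO), with 1 library each. All groups came from male RGS5::GFP heterozygous mice of 8 to 12 weeks, in which GFP marks cells that express Rgs5, a gene of vascular mural cells, so that no group had the wild-type genotype. Sequencing used 3 mice for the 6 libraries, so that libraries share animals. The labels name a v3 single-index kit at 1 and 24 h and a v3.1 dual-index kit at 12 h, whereas the methods name v3.1 for all libraries, with a NovaSeq sequencer at 1 and 12 h and a HiSeq at 24 h, so that kit, sequencer and timepoint cannot be told apart. In the matrix the libraries carry only the numbers 1 to 6, and no source used here names the group behind a number. Values are therefore given by cell class and by library number, without a hemisphere or a timepoint, and without a p-value, since no library could be placed in its group and each group had 1 library.

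Complement is a cascade of plasma and tissue proteins that tags cells and debris for uptake. The classical pathway starts with C1q, a protein built from the A, B and C chains, and leads through C4 to C3, the protein on which all activation routes meet. Cleavage of C3 and C5 frees small peptides that act on the receptors C3ar1 and C5ar1, while Serping1 (C1 inhibitor) blocks the proteases that C1q sets off. In brain, microglia are known as the main source of C1q.

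After filtering, 17357 cells remained, with a median of 5338 UMIs per cell and library medians between 5053 and 5660.5 UMIs. Libraries 1 to 6 held 1221, 1405, 5873, 4216, 1906 and 2736 cells. Clusters were found without the 8 genes and named from marker lists, which gave 14 named classes and 726 cells without a name. In 13 of the 14 classes every marker of the list was highest in its own class, the exception being 1 of the 6 markers of monocyte-derived macrophage-like cells. The same markers had given the names, so this is no independent check of them. Class names end in -like because they were rebuilt from markers. The largest class was microglia-like, with 7857 cells, and 26 cell barcodes occurred in more than 1 library, which touched 52 cells. Hemoglobin RNA stood at 4012 CPM in perivascular macrophage-like cells and at 17.9 CPM in monocyte-derived macrophage-like cells, and its part in the values below was not tested. CPM is a gene's UMIs per 1000000 UMIs, both summed over the same cells, and the intervals are exact 95% Poisson intervals that cover counting error only.

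All 8 genes lie on the minus strand of the mouse genome (GRCm38, the mm10 build of the labels). The C1q genes sit side by side on chromosome 4, C1qb at 136880129 to 136886187, C1qc at 136889804 to 136893065 and C1qa at 136895917 to 136898803, within a span of 18.7 kb. C3 is on chromosome 17 at 57203970 to 57228136 and C4b on the same chromosome at 34728380 to 34743882. Serping1 is on chromosome 2 at 84765387 to 84775444, C3ar1 on chromosome 6 at 122847138 to 122856161 and C5ar1 on chromosome 7 at 16246743 to 16259540. None overlaps another annotated gene except C3, which contains the microRNA gene Mir6978 on its own strand, and that gene is not in the matrix. C4b has a close paralogue, C4a, and of the last 500 bases of the C4b transcript 499 aligned to C4a with 98.0% identity. C4a had 7 UMIs in the named classes, so nearly all reads that could be assigned went to C4b, and reads shared by both genes are uncertain.

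The RefSeq promoter table (GRCm38.p6) held 5 of the 8 genes, and 3 windows of 250 bases before the start are shown because they belong to genes with contrasting cell classes below: C1qb, led by microglia-like cells, C3ar1, a receptor of microglia-like and perivascular macrophage-like cells, and C3, near 0 in microglia-like cells. Capitals mark matches, on either strand, to GAGGAA, the core that PU.1 (a factor of myeloid cells) is known to bind, to the repeat of interferon response elements, and to TGACTCA of AP-1. C1qb at chr4:136886201-136886450, C3ar1 at chr6:122856158-122856407 and C3 at chr17:57228137-57228386 are all on the minus strand and written 5′ to 3′.
C1qb: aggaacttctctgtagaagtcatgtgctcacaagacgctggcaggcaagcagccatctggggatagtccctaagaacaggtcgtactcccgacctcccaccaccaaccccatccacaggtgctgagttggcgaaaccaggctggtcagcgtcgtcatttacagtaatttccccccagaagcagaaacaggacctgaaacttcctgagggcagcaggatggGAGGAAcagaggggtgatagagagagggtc
C3ar1: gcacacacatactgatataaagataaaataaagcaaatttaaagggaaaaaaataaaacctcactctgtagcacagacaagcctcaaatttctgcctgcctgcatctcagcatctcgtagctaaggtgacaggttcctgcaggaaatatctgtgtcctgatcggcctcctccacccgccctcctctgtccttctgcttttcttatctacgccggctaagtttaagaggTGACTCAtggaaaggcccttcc
C3: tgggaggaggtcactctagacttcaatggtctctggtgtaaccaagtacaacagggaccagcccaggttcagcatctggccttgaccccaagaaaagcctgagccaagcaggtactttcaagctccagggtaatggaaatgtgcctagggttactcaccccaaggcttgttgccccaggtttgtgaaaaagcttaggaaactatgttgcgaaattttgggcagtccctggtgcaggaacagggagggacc
GAGGAA was present once in the C1qb window, as well as once in that of C1qc, and in none of the C3, C3ar1 and C5ar1 windows. Of all 32851 promoter windows of this length, 23.3% held it. TGACTCA occurred once, in the C3ar1 window, against 4.46% of all windows, and the interferon response repeat in none of the 5, against 2.98% of all windows. A match is only a match of letters.

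C1qa, C1qb and C1qc, the 3 chains of C1q, were highest in microglia-like cells, with perivascular macrophage-like cells next. C1qa stood at 10111 CPM in microglia-like and at 7157 CPM in perivascular macrophage-like cells, a ratio of 1.41 (1.36 to 1.47). For C1qb the levels were 9759 and 6318 CPM and the ratio 1.54 (1.48 to 1.61), and for C1qc 6361 and 4587 CPM and 1.39 (1.32 to 1.46). C1q RNA made up 2.62% of all UMIs of microglia-like cells and 1.81% of those of perivascular macrophage-like cells. Nearly every cell of both classes carried it: at an equal depth of 1000 UMIs per cell, C1qa was found in 99.1% of microglia-like and 98.6% of perivascular macrophage-like cells. Microglia-like cells held 94.0% of all C1qa UMIs, 93.9% of C1qb and 94.0% of C1qc. Among the 8 genes, these 3 had microglia-like cells as their highest class, while over all genes that reach 50 CPM in a named class the share was 7.37%.

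**Figure D1:**
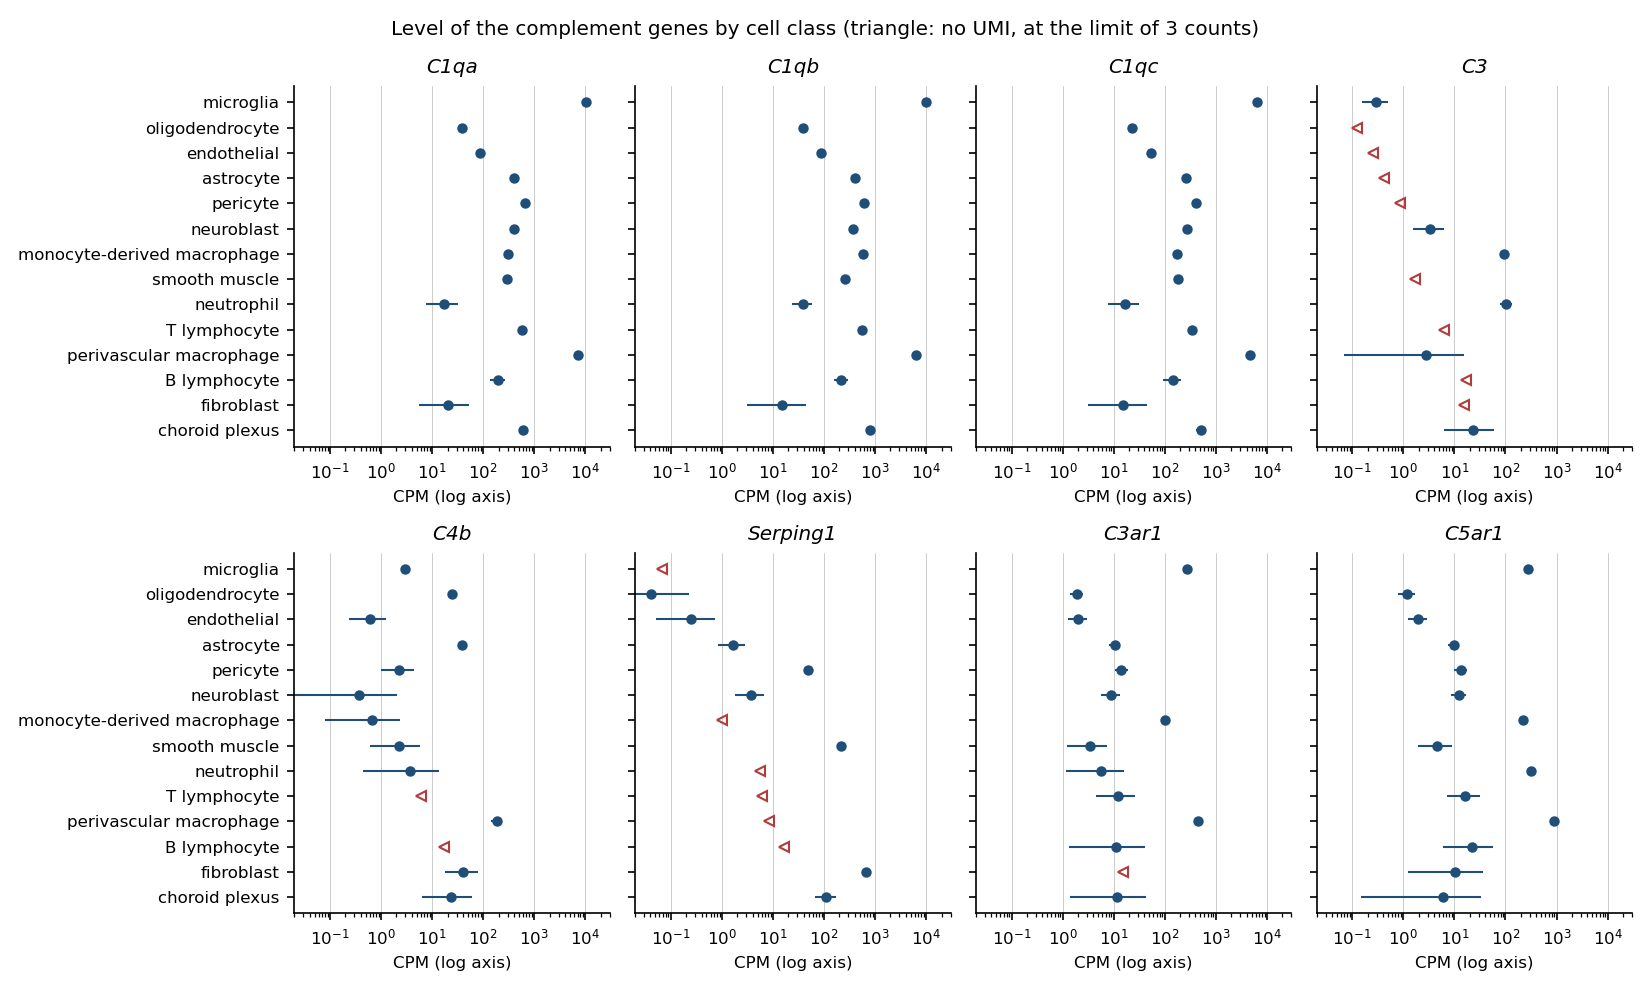
CPM of each gene (log axis) in the 14 named cell classes, with 95% Poisson intervals as bars. Open triangles stand for classes without a UMI, drawn at the limit of 3 counts. The C1q chains were at 4587 CPM or more in microglia-like and perivascular macrophage-like cells and at most 802 CPM in every other class, whereas C3 was highest in the neutrophil-like and monocyte-derived macrophage-like classes and Serping1 in fibroblast-like and smooth muscle-like cells.

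Outside the myeloid classes the C1q UMIs lay mostly in few cells. Pericyte-like cells had 668 CPM of C1qa, choroid plexus-like cells 609 CPM and T lymphocyte-like cells 579 CPM, and the interval of choroid plexus-like cells (497 to 738) overlapped those of its neighbours in the order (641 to 695 and 514 to 651). These intervals do not cover the spread between cells, so the order of these classes is not settled by them. In pericyte-like cells, 39 of 894 cells had 20 or more C1q UMIs and held 95.7% of the C1q UMIs, and 31 of the 39 were called doublets. The other pericyte-like cells had a summed C1q level of 80.0 CPM. In astrocyte-like cells 55 of 1165 cells held 95.2%, with 33 called doublets, and the remaining cells had 54.8 CPM. In choroid plexus-like cells 2 of 22 cells held 99.4%, and in T lymphocyte-like cells 4 of 95 held 95.5%, none of them a called doublet. Free RNA, measured in barcodes with 1 to 50 UMIs, had a C1qa level of 3461 CPM over all libraries. It ranged from 2066 CPM in library 6 to 6246 CPM in library 3. With free RNA subtracted, C1qa fell from 668 to 222 CPM in pericyte-like and from 393 to 14.99 CPM in astrocyte-like cells. In oligodendrocyte-like cells it fell from 38.8 to 2.26 CPM, and in endothelial-like cells from 88.1 to 0 CPM. Choroid plexus-like and T lymphocyte-like cells kept 515 and 537 CPM. The share taken as free RNA was set by class and library, for example 19.2% in pericyte-like and 18.9% in astrocyte-like cells of library 3. The few cells with 20 or more C1q UMIs were part of these classes. The subtracted values therefore do not separate free RNA from the RNA in those few cells. At 1000 UMIs per cell, C1qa was seen in 7.61% of pericyte-like, 6.78% of astrocyte-like and 2.19% of oligodendrocyte-like cells, whose median depths were 3419.5, 5593 and 8849.5 UMIs. In oligodendrocyte-like cells 15 of 2700 cells held 58.8% of the C1q UMIs, with 6 called doublets. Called doublets held 75.9%, 68.3% and 28.2% of the C1qa UMIs of pericyte-like, astrocyte-like and oligodendrocyte-like cells. The source of the C1q UMIs in these classes was not tested.

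Across libraries the C1q level of microglia-like cells kept within a narrow range. C1qa was at 10178, 10876, 10820, 10451, 7944 and 8834 CPM in libraries 1 to 6. C1qb was at 9596, 10403, 10450, 10429, 7472 and 8033 CPM, and C1qc at 6549, 6885, 7052, 6334, 5708 and 4809 CPM. Over all microglia-like cells, libraries 5 and 6 were the lowest for all 3 chains, and the highest was library 2 for C1qa and library 3 for C1qb and C1qc. The highest library exceeded the lowest 1.37 times (1.35 to 1.39) for C1qa, 1.40 times (1.38 to 1.41) for C1qb and 1.47 times (1.45 to 1.48) for C1qc. Of the 5 genes that reached 10 CPM in these cells, 2 (C3ar1 and C5ar1) had a highest library at 2 or more times the lowest, against 32.8% of all genes at 10 CPM or more.

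Microglia-like cells fell into 5 clusters that differed in C1q level. Cluster 0, with 2910 cells and the highest summed level of the homeostatic list (8333 CPM), had 12661 CPM of C1qa. Cluster 3, led by the immediate-early genes Fosb, Nr4a1 and Fos, had 8047 CPM, and cluster 4, led by Spp1, Lpl and Lgals3, had 8025 CPM. Cluster 1, led by Gm10138, Hes1 and Ccdc152, was between them at 11152 CPM, and the 37 cells of cluster 26, led by the interferon genes Ifit3, Ifit2 and Isg15, had 12652 CPM. Cluster 4 also had the lowest homeostatic level, 2100 CPM, and the highest level of the activated list, 5081 CPM. Of its 1447 cells, 802 were in library 4 and 612 in library 6, while the 4 other libraries had between 0 and 20. The order of the libraries differed within a cluster. In cluster 0 alone, C1qa was at 14187 CPM in library 4, 13629 CPM in library 6 and 9660 CPM in library 5. It was between 12475 and 12860 CPM in libraries 1 to 3. Library 4 was the highest there for all 3 chains, while libraries 5 and 6 stayed the lowest for C1qb and C1qc.

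The lower C1q level of cluster 4, as a part of all UMIs, was seen within each of its main libraries. Its cells were deeper, with a median of 6842 UMIs against 4298.5, 5150 and 6302 UMIs in clusters 0, 1 and 3. Over all libraries, C1qa had 86337 UMIs in 1447 cells of cluster 4 and 165640 UMIs in 2910 cells of cluster 0. The C1qa count per cell was thus not lower in cluster 4, and counts per cell were not compared within libraries. In library 4, C1qa was at 8009 CPM in cluster 4 and at 12447 CPM in the other microglia-like cells, a ratio of 0.64 (0.64 to 0.65). In library 6 the levels were 7940 and 11491 CPM and the ratio 0.69 (0.68 to 0.70). For C1qb the ratios were 0.70 and 0.77 in libraries 4 and 6, and for C1qc 0.64 and 0.70. The 20 cells of cluster 4 in library 3 were an exception, with 10926 CPM of C1qa against 10819 CPM. Cluster 3 was below the other microglia-like cells in libraries 1 to 5, with C1qa ratios between 0.67 and 0.85, and above them in library 6, at 1.08 (1.06 to 1.11). In library 6, 612 of the 846 other cells belonged to cluster 4.

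C3ar1, the receptor of the C3a peptide, and C5ar1, that of C5a, were higher in cluster 4. C3ar1 was at 431 CPM in cluster 4 and at 218 CPM in the other microglia-like cells, a ratio of 1.98 (1.91 to 2.05), and C5ar1 at 571 and 177 CPM, a ratio of 3.22 (3.11 to 3.34). Within library 4 the ratios were 1.90 (1.79 to 2.02) and 2.65 (2.51 to 2.79), and within library 6 they were 1.55 (1.39 to 1.74) and 3.05 (2.58 to 3.64). In library 3, with 20 cells, they were 2.37 (1.82 to 3.03) and 2.97 (2.31 to 3.77). At equal depth, 38.6% of cluster 4 cells had a C5ar1 UMI, and in clusters 0, 1, 3 and 26 it was between 10.8% and 14.7%. In cluster 3, also low in C1q CPM, C5ar1 was not higher, with 180, 177 and 174 CPM in clusters 0, 1 and 3. C3ar1 was at 200, 208 and 249 CPM in these clusters. Against all other microglia-like cells, cluster 4 included, the ratios of cluster 3 were 0.90 for C3ar1 and 0.58 for C5ar1. By library, the C3ar1 ratio was 1.22 (1.04 to 1.45) in library 2 and 1.30 (1.21 to 1.40) in library 3. It was 0.78 in library 4 and 0.73 in library 6, and the intervals of libraries 1 and 5 spanned equality. The clusters were found without the 8 genes, but a cluster set against the rest is a description and no test.

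**Figure D2:**
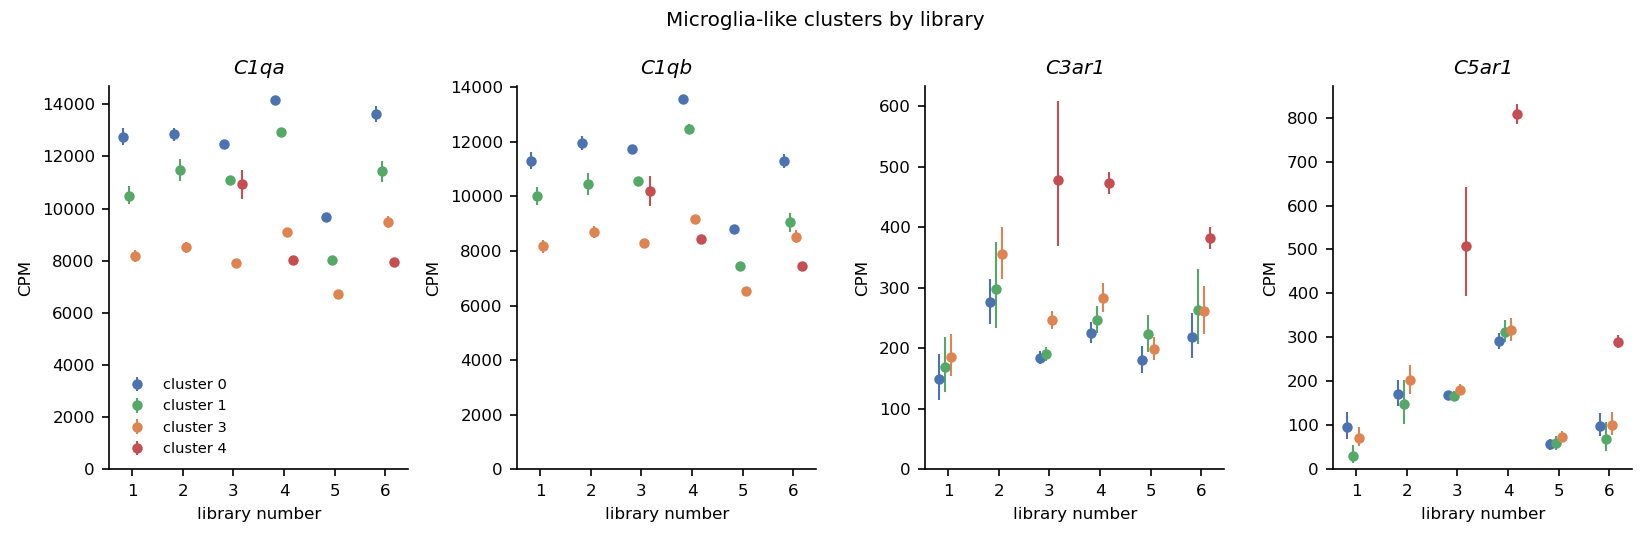
CPM of C1qa, C1qb, C3ar1 and C5ar1 (linear axes from 0) by library number in the microglia-like clusters 0, 1, 3 and 4, for libraries with at least 20 cells of the cluster, with 95% Poisson intervals. In libraries 4 and 6, cluster 4 (red) was lowest for the C1q chains and highest for both receptors, and C5ar1 was also higher in library 4 than in library 6 in every cluster.

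Taken over all microglia-like cells, C5ar1 had the widest spread between libraries among the 5 genes at 10 CPM or more. It was at 68.8, 185, 173, 531, 67.3 and 241 CPM in libraries 1 to 6, so that library 4 was the highest and libraries 1 and 5 the lowest, at a ratio of 7.89 (7.05 to 8.86) between libraries 4 and 5. In cluster 0 alone C5ar1 was at 95.4, 171, 168, 291, 56.0 and 98.9 CPM, so library 4 stayed the highest outside cluster 4 too. C3ar1 was at 170, 318, 204, 350, 197 and 348 CPM, with libraries 4, 6 and 2 above the others. Serping1 had no UMI among 44448548 UMIs of these cells, which allows up to 0.0675 CPM, and C3 had 13 UMIs, or 0.29 CPM. C4b had 128 UMIs, or 2.88 CPM, and in the interferon-led cluster 26 its 5 UMIs came to 25.8 CPM (8.38 to 60.2).

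The receptors were highest in perivascular macrophage-like cells, the macrophages that line brain vessels. C5ar1 was at 873 CPM there, 2.77 times (2.29 to 3.36) its level in neutrophil-like cells at 315 CPM, which did not differ beyond counting error from microglia-like cells at 273 CPM. Monocyte-derived macrophage-like cells followed at 222 CPM, and all other classes were at 22.2 CPM or less. C3ar1 was at 445 CPM in perivascular macrophage-like, 269 CPM in microglia-like and 102 CPM in monocyte-derived macrophage-like cells, and at 14.2 CPM or less elsewhere. Neutrophil-like cells had C5ar1 but only 3 UMIs of C3ar1 (5.56 CPM). Their C5ar1 level was 262 CPM in library 3, 383 CPM (313 to 464) in library 4 and 151 CPM (91.0 to 236) in library 6, so that libraries 4 and 6 did not overlap. C4b, C3ar1 and C5ar1 had perivascular macrophage-like cells as their highest class, 3 of 8 genes against 4.39% of all genes that reach 50 CPM. The class held 69 cells, with at least 20 only in library 3, so its values are pooled over libraries.

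C3, the central component, was found mainly in the myeloid classes named for blood-derived cells. It was at 102 CPM (76.8 to 133) in neutrophil-like and at 93.6 CPM in monocyte-derived macrophage-like cells, levels that did not differ beyond counting error, with a ratio of 1.09 (0.80 to 1.46). Without library 6 the ratio was 0.71, so which of these classes leads depends on that library. Of all 384 C3 UMIs, monocyte-derived macrophage-like cells held 73.7% and neutrophil-like cells 14.3%. No C3 UMI was found in 1165 astrocyte-like, 2700 oligodendrocyte-like, 2676 endothelial-like and 894 pericyte-like cells, which allows up to 0.414, 0.123, 0.254 and 0.851 CPM. Of the 8 genes, C3 alone had neutrophil-like cells as its highest class, against 6.56% of all genes that reach 50 CPM.

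The monocyte-derived macrophage-like cells comprised 3 subclusters that differed in complement genes. Subcluster 4, with 70 cells led by Plac8, Chil3 and Lyz2 and the highest Ly6c2 level (354 CPM), had Arg1 at 0 CPM. The class name thus covers subclusters with and without Arg1. Subcluster 4 had the most C3 of the 3, 152 CPM, and the least of the C1q chains and of both receptors. Subclusters 0 (163 cells) and 3 (92 cells), with Arg1 at 1428 and 1823 CPM, had 75.6 and 79.3 CPM of C3, 0.50 (0.38 to 0.65) and 0.52 (0.38 to 0.72) of the level in subcluster 4. Within library 4, however, C3 was at 137 CPM (105 to 176) in subcluster 0 and 155 CPM (123 to 193) in subcluster 4, a ratio of 0.88 (0.62 to 1.25), so that they did not differ beyond counting error there. C3ar1 was at 110 and 167 CPM in subclusters 0 and 3 and at 2.99 CPM (2 UMIs) in subcluster 4. C5ar1 was at 285, 209 and 92.6 CPM, and C1qb at 734, 759 and 68.7 CPM, in subclusters 0, 3 and 4. Within library 4, C3ar1 was at 55.3 CPM in subcluster 0 and 3.88 CPM in subcluster 4, C5ar1 at 374 and 103 CPM, and C1qb at 144 and 50.4 CPM.

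These subclusters were spread unevenly over the libraries. Monocyte-derived macrophage-like cells were almost all in libraries 4 (109 cells) and 6 (212 cells), subcluster 4 mostly in library 4 (55 of 70 cells) and subcluster 3 mostly in library 6 (88 of 92 cells). Between these libraries, 5 of the 6 genes at 10 CPM or more differed at least 2 times, against 17.5% of all such genes, C5ar1 being the exception with 227 and 222 CPM. C1qb was at 102 CPM in library 4 and 859 CPM in library 6, C3ar1 at 27.7 and 142 CPM, and C3 at 146 and 63.1 CPM. Within subcluster 0 the directions were the same, with 144 and 983 CPM of C1qb, 55.3 and 133 CPM of C3ar1, and 137 and 49.6 CPM of C3.

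**Figure D3:**
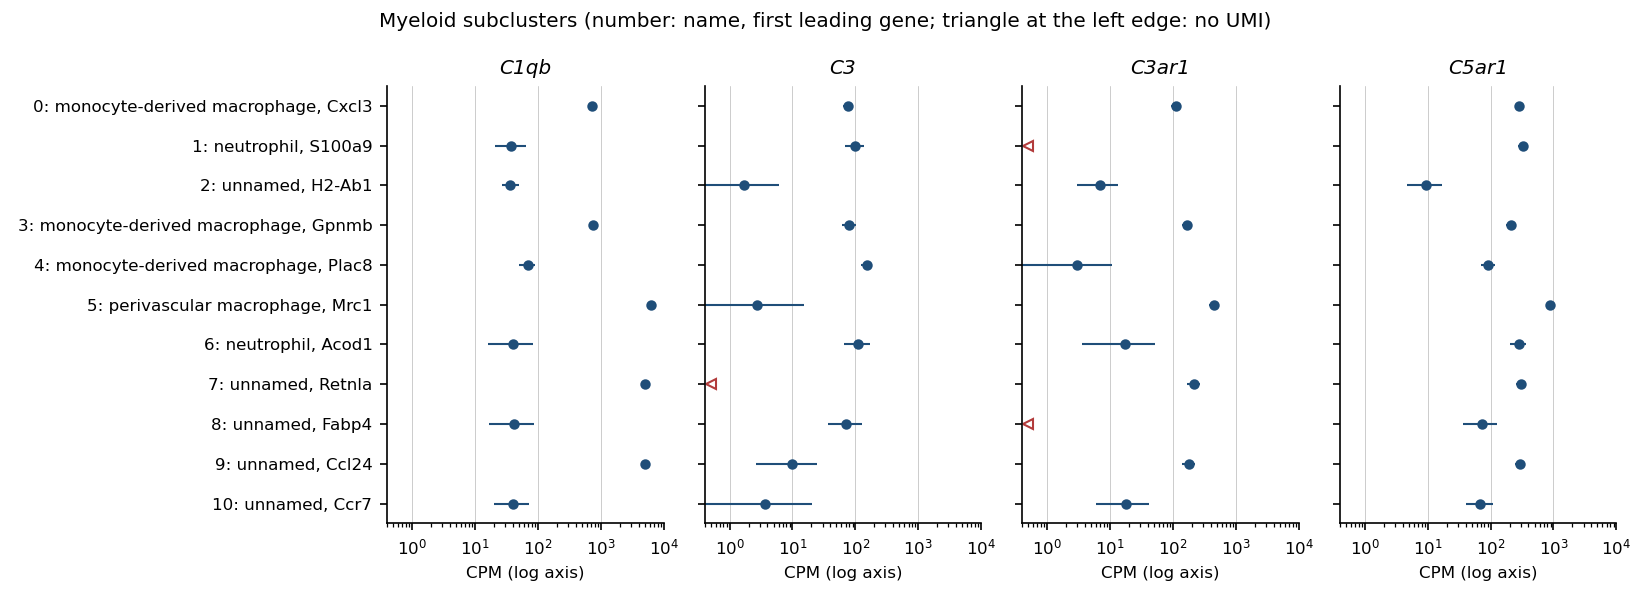
CPM (log axis) of C1qb, C3, C3ar1 and C5ar1 in the myeloid subclusters of at least 20 cells outside microglia, with 95% Poisson intervals and triangles at the left edge for no UMI. C1qb was at 5016 CPM or more in subclusters 5, 7 and 9, C3 was highest in subcluster 4, and C5ar1 was lowest in subcluster 2, led by class II genes.

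C1q in monocyte-derived macrophage-like cells was carried by a minority. Of 325 cells, 48 had 20 or more C1q UMIs, a limit set after the values were seen, and held 89.3% of the C1q UMIs of the class, and 47 of the 48 were in library 6. None of the 48 was called a doublet. Their 7 microglia markers summed to 269 CPM, against 17517 CPM in microglia-like cells and 143 CPM in the other 277 cells, with 2 of the 7 at 0. The 6 perivascular macrophage markers summed to 1797 CPM in the 48 cells and 981 CPM in the 277 cells, with 1 marker at 0 in both, and Apoe stood at 5717 and 2729 CPM. Arg1 stood at 1700 CPM in the 48 and at 1118 CPM in the 277 cells, and Trem2, a lipid receptor of macrophages, at 289 and 119 CPM. The 277 cells included 108 cells of library 4 and all 70 cells of subcluster 4, which had Arg1 at 0 CPM. Median depths were 10823.5 UMIs in the 48 and 8826 UMIs in the 277 cells. Subcluster, library and depth thus cannot be told apart in these pooled contrasts. Library 6 held 47 of the 48 and 165 of the 277 cells, and a contrast within it was not made.

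The proportions of the 3 chains differed between these cells and microglia-like cells taken as a whole. In microglia-like cells C1qa, C1qb and C1qc made up 38.5%, 37.2% and 24.3% of the C1q UMIs, and in perivascular macrophage-like cells 39.6%, 35.0% and 25.4%. In monocyte-derived macrophage-like cells they made up 28.4%, 55.6% (53.8 to 57.3) and 16.1% of 3229 UMIs. In the 48 cells with most C1q the shares were 29.7%, 55.1% and 15.2%. A high C1qb share was not limited to this class. It was 54.5% of the 356 C1q UMIs in microglia-like cells with under 20 C1q UMIs. In neutrophil-like cells it was 53.8% of 39 UMIs. Endothelial-like, oligodendrocyte-like, astrocyte-like and pericyte-like cells had C1qb shares between 36.3% and 38.6%, close to that of microglia-like cells. Free RNA had 42.5% C1qb over all libraries and between 37.1% and 45.1% in single libraries. UMIs were counted at 3′ ends, so the shares compare cell classes for the same chains and not the amounts of the chains with each other.

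**Figure D4:**
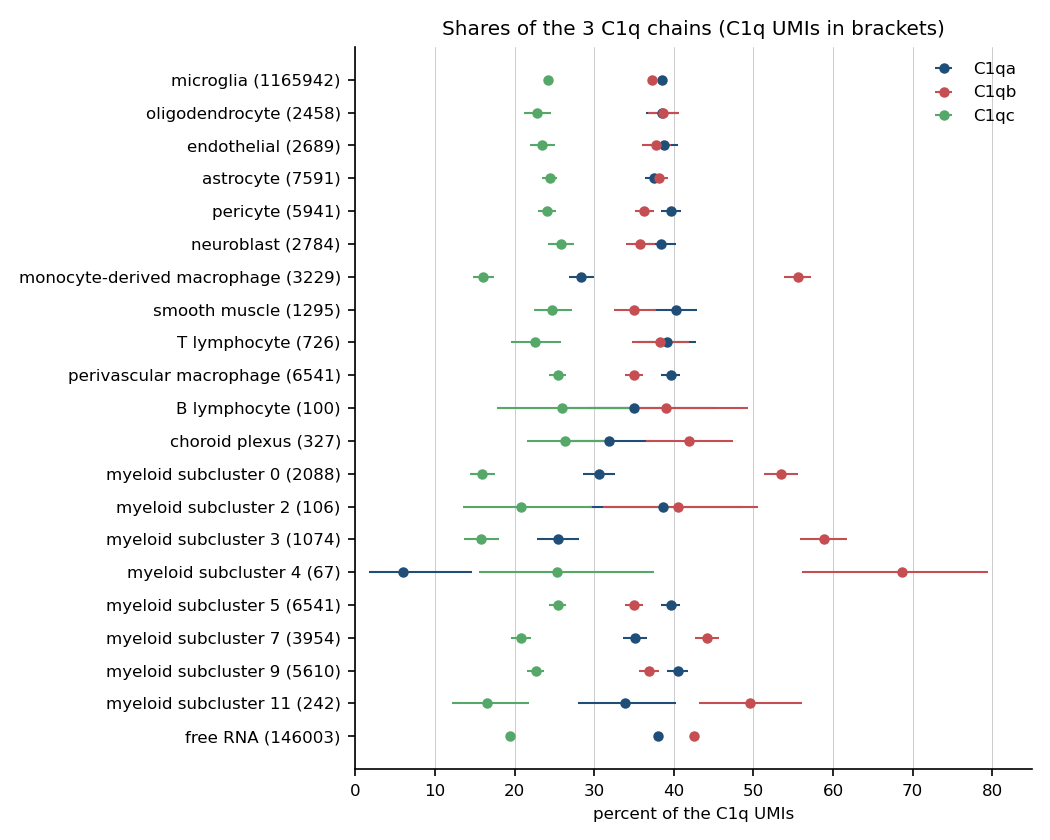
Shares of C1qa, C1qb and C1qc among the C1q UMIs (percent, with Clopper-Pearson 95% intervals) by class, by myeloid subcluster and in free RNA, for sets with at least 50 C1q UMIs, given in brackets. C1qb is between 35.1% and 41.9% in microglia-like cells and the non-myeloid classes with at least 50 C1q UMIs, and between 53.4% and 68.7% in subclusters 0, 3 and 4 of the monocyte-derived macrophage-like cells.

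Other myeloid subclusters stayed without a name but differed sharply in C1q. Subcluster 7 (46 cells), led by Retnla with class II genes and with 417 CPM of the macrophage gene Mrc1, had 4042 CPM of C1qa and a C1qb share of 44.2%, and C1qa was found in 97.8% of its cells. Subcluster 2 (102 cells), also led by class II genes and with 452 CPM of Cd209a, a dendritic cell marker, had 35.0 CPM of C1qa, so that C1qa was 115 times (84.7 to 162) higher in subcluster 7. Subcluster 10 (31 cells), with 2310 CPM of Ccr7, a marker of migratory dendritic cells, had 32.6 CPM. The class II gene H2-Ab1 was at 6612, 9023 and 5117 CPM in subclusters 7, 2 and 10. C3 was at 71.8 CPM in subcluster 8 (36 cells, led by Fabp4), and at 9.69 CPM or less in subclusters 2, 7, 9 and 10. Subcluster 9 (32 cells, 10 in library 4 and 17 in library 6) was led by Ccl24, Pf4 and Arg1. It had 797 CPM of Arg1 and 5503 CPM of C1qa, and the microglia markers Tmem119 and P2ry12 at 606 and 550 CPM. All 32 cells had 20 or more C1q UMIs, and 3 of them were called doublets.

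C4b, which follows C1q in the classical pathway, was found in glia and in perivascular macrophage-like cells. The latter had the highest level, 182 CPM, 4.50 times (2.16 to 10.9) that of fibroblast-like cells at 40.5 CPM, and 44.9% (32.9 to 57.4) of their cells had a UMI. All 8 fibroblast-like UMIs came from library 6, in 3 of 31 cells. Subcluster 7, the other subcluster outside microglia with Mrc1 above 400 CPM, had none. Astrocyte-like cells were at 38.3 CPM and oligodendrocyte-like cells at 24.5 CPM, a ratio of 1.56 (1.35 to 1.81). By number, oligodendrocyte-like cells held 52.4% of all 1138 C4b UMIs and astrocyte-like cells 24.3%.

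In oligodendrocyte-like cells C4b stood apart in 2 libraries. It was at 11, 13.3, 11.9, 35.4, 11.2 and 89.3 CPM in libraries 1 to 6, so that library 6 was 8.10 times (5.84 to 11.5) above library 1, library 4 lay between, and the intervals of libraries 1, 2, 3 and 5 overlapped. In library 1, 20 of the 45 C4b UMIs came from 1 cell. Astrocyte-like cells had the same 2 libraries on top, with 23.3, 26.5, 18.9, 45.6, 19.8 and 133 CPM. The free RNA moved alike, with 4.70, 5.39, 8.27, 28.3, 10.7 and 71.4 CPM. After subtraction of free RNA the class levels over all libraries were 24.7 CPM in oligodendrocyte-like and 41.0 CPM in astrocyte-like cells. These levels are pooled, so they do not show whether the spread between libraries remained. In oligodendrocyte-like cells, C4b and the C1q chains, all 4 genes at 10 CPM or more, had a highest library at 2 or more times the lowest, against 18.8% of all such genes, the C1q UMIs lying mostly in 15 cells.

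The higher C4b level of library 6 was seen across oligodendrocyte-like clusters. Cluster 20, led by Atf3, Serpina3n and Gadd45b and found only in libraries 4 (86 cells) and 6 (52 cells), had 98.6 CPM (83.0 to 116), against 16.8 to 39.8 CPM in the other clusters over all libraries. Within library 4 it was 1.51 times (1.06 to 2.11) and within library 6 3.15 times (2.36 to 4.19) the level of the other oligodendrocyte-like cells. In library 4, however, cluster 20 was at 49.3 CPM and the 50 cells of cluster 19, led by hemoglobin genes, at 71.8 CPM. The level of cluster 19 was 2.09 times (1.03 to 3.83) that of the other oligodendrocyte-like cells. This interval overlapped that of cluster 20, so the order of these clusters in library 4 is uncertain. In library 6, C4b was at 48.9, 59.9 and 59.7 CPM in clusters 5, 6 and 12 and at 189 CPM in cluster 20. Cells with a UMI of Serpina3n, an acute-phase serpin of reactive glia, had 179 CPM of C4b (150 to 213) in library 6 and cells without it 47.4 CPM (37.2 to 59.7). In library 4 these values were 68.8 CPM (55.9 to 83.9) and 23.9 CPM (19.4 to 29.1). Median depths were 8475 UMIs in the cells with Serpina3n of library 6 and 7115 UMIs in those without.

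**Figure D5:**
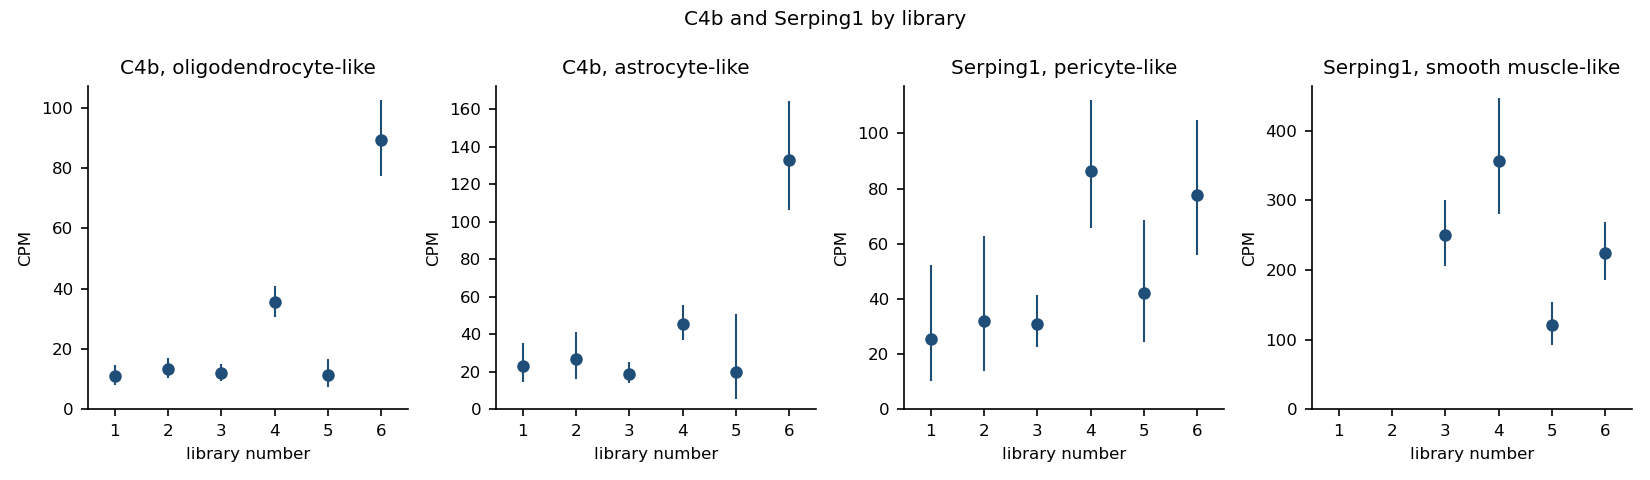
CPM (linear axes from 0, 95% Poisson intervals) of C4b in oligodendrocyte-like and astrocyte-like cells and of Serping1 in pericyte-like and smooth muscle-like cells, by library number, where a library had at least 20 cells. C4b was highest in library 6 and next in library 4 in both glial classes, and Serping1 was highest in library 4 in both mural classes.

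Serping1, the inhibitor, belonged to cells of the vessel wall and its surroundings. Fibroblast-like cells had 673 CPM, 3.06 times (2.49 to 3.73) the level of smooth muscle-like cells at 220 CPM, and 80.6% (62.5 to 92.5) of the 31 fibroblast-like cells had a UMI. Without library 6 the ratio was 2.02 (1.46 to 2.75). Choroid plexus-like cells had 111 CPM from 19 UMIs, all in 2 of the 22 cells, and pericyte-like cells 49.3 CPM. The other classes were at 3.72 CPM or less, and all 6 myeloid and lymphoid classes had no UMI. Smooth muscle-like cells held 52.4% of the 744 Serping1 UMIs, pericyte-like cells 23.4% and fibroblast-like cells 17.9%. Serping1 was the 1 gene of the 8 with fibroblast-like cells on top, against 7.88% of all genes that reach 50 CPM.

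Serping1 also varied over libraries in the mural classes. In pericyte-like cells it was at 25.4, 31.9, 30.9, 86.5, 42.3 and 77.6 CPM, with libraries 4 and 6 above the others, although the interval of library 6 (55.9 to 105) overlapped those of libraries 2 (13.8 to 62.9) and 5 (24.2 to 68.6). The 63 pericyte-like cells of cluster 24, led by Il11, Ccl11 and Saa3 and present only in libraries 4 and 6, had 105 CPM, 2.44 times (1.66 to 3.51) the level of cluster 7 over all libraries. Within library 4 the ratio was 1.24 (0.66 to 2.24) and within library 6 it was 1.80 (0.94 to 3.48), so that the clusters did not differ beyond counting error within either library. In smooth muscle-like cells Serping1 was at 250, 356, 120 and 224 CPM in libraries 3 to 6, so that library 5 was the lowest, and libraries 1 and 2 had under 20 cells.

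The remaining pathway was read from 48 other complement genes, all of them in the matrix, of which 16 reached 50 CPM in a named class. Of the classical and lectin initiators, 2 of 13 did so, C1s1 and C2. C1s1, the C1s protease, reached 85.7 CPM in smooth muscle-like and 36.0 CPM in pericyte-like cells, which also had Serping1. Fibroblast-like cells, the highest class for Serping1, had 20.2 CPM of C1s1 (4 UMIs). C2, the partner of C4b in the convertase, reached 69.0 CPM in perivascular macrophage-like cells. In the alternative pathway Cfp (properdin), 1 of 3 genes, reached 294 CPM in monocyte-derived macrophage-like cells, 120 CPM in neutrophil-like cells and 119 CPM in perivascular macrophage-like cells. The first 2 of these classes also had C3, whereas perivascular macrophage-like cells had 2.76 CPM of C3 (1 UMI). None of the 7 terminal components did. Fluid-phase regulators, 3 of 6, included Vtn at 17090 CPM in pericyte-like cells and Clu at 4434 CPM in astrocyte-like cells.

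Regulators on the membrane reached 50 CPM in 3 of 9 cases, Cd59a and Cr1l in endothelial-like cells (295 and 196 CPM) and Cd55 in B lymphocyte-like cells (306 CPM). Receptors and C1q binding proteins did so in 7 of 10. Itgam and C5ar2, the second C5a receptor, were highest in microglia-like cells at 547 and 80.1 CPM. Itgb2 was highest in neutrophil-like (241 CPM), Cd93 in endothelial-like (375 CPM), Lrp1 in fibroblast-like (708 CPM), Megf10 in astrocyte-like (77.2 CPM) and C1qbp in choroid plexus-like cells (152 CPM). Over the microglia-like clusters, C5ar2 was at 121, 95, 58.7, 38.5 and 61.9 CPM in clusters 0, 1, 3, 4 and 26, lowest in cluster 4, where C5ar1 was highest. These C5ar2 values are pooled over libraries, while cluster 4 lay mostly in libraries 4 and 6, and the order within a library was not tested.

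Genes with the most similar pattern were sought by Pearson's r of log2(CPM + 10) over the 14 classes, among 8418 genes that reach 50 CPM in a class. The classes share libraries and free RNA, so r is a description. Trem2 was nearest to C1qa (0.97), C1qb (0.98) and C1qc (0.97), followed by Fcrls and Ntpcr for C1qa, Csf1r and Rgs10 for C1qb, and Fcrls and Hpgds for C1qc. For C3 they were Hp (0.97), Plbd1 and Gpr141, and for Serping1 Pcolce (0.98), Col8a1 and Col5a2. For C3ar1 they were Adgre1 (0.98), Fcgr1 and Ptpro, and for C5ar1 Arl11 (0.97), Lrrc25 and Clec4a2. C4b had no gene this close, with Gpx3 at 0.84, Apoe at 0.82 and Vcam1 at 0.81. Among the 8 genes themselves, r was 0.99 or more between the C1q chains, 0.82 between the 2 receptors, and between -0.40 and 0.49 for C3, C4b and Serping1 with the others.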

How the data were processed

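Per the labels, the authors aligned reads to mm10 with Cell Ranger 5 (5.0.1 in the matrix header) and, per the methods, pooled the 6 libraries after normalizing them for depth. The deposited values are UMI counts per gene and barcode. Barcodes were called as cells at 0.1 or more of the UMIs of the barcode at the 99th percentile among the 3000 deepest of a library, with at least 200 genes and at most 10% mitochondrial UMIs, which kept 17357 of 18589 cells. Doublets called by simulation (322 cells, 1.86%) were kept in the values and removed in an alternative. Clusters came from 2000 variable genes without the 8 members, 30 components and 20 neighbours (Leiden, resolution 0.8), and 811 myeloid cells were clustered again with 15 components. A class needed at least 3 of its markers raised 2 times. The naming rules were set after the data were seen, and the members and gene lists were chosen with earlier results of these data known. The rule for named genes took all 8 members, pathway genes at 50 CPM or more in a class and the 3 most alike genes per member. The values of 1 pathway gene are not reported here. Values are CPM of summed UMI counts with exact intervals, and pair ratios use the exact conditional interval. The library numbers are not tied to groups in the sources used here, so no model over hemisphere and timepoint was fitted. Library values need at least 20 cells. Alternatives for cluster 4, for C4b by library, and within libraries for C3 and Serping1 were chosen after seeing the data. Steps were tested on simulated data. Software: Python 3.11.15, numpy 2.4.6, scipy 1.17.1, pandas 2.3.3, scikit-learn 1.9.0, scikit-image 0.26.0, igraph 0.11.9, leidenalg 0.10.2, matplotlib 3.10.9 and biopython 1.88. Positions are from GENCODE release M21.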

Additional observations from a re-analysis of the deposited data

How the results depend on the processing

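Each member's ratio of its highest class to the next class was recomputed with called doublets removed, at clustering resolutions 0.4 and 1.2, as the mean of the cells' own CPM, with the paper's filters alone, with free RNA subtracted and without each library in turn. Of these 95 values, 82 moved by less than the counting error, and 1 changed direction, the C3 ratio of neutrophil-like to monocyte-derived macrophage-like cells, which was 0.71 without library 6. The C1qa ratio was 1.47 with the paper's filters alone, and the Serping1 ratio was 2.45 as the mean of the cells' own CPM, and the causes were not tested. Without a library in turn, the ratios ranged from 1.32 to 1.55 for C1qa, from 1.46 to 1.66 for C1qb, from 1.25 to 1.48 for C1qc, from 0.71 to 1.28 for C3, from 3.59 to 4.28 for C4b, from 2.02 to 3.52 for Serping1, from 1.35 to 2.0 for C3ar1 and from 2.44 to 3.06 for C5ar1. The C4b ratio had no value without library 6, since its fibroblast-like UMIs were all there. At 1000 UMIs per cell the share of cells with a UMI in the highest class went from 44.9% to 13% for C4b, from 80.6% to 41.9% for Serping1 and from 23% to 8.70% for C3. The ratio of the highest to the lowest library for C4b in oligodendrocyte-like cells was 5.46 without cluster 20 and 7.69 without cells that had a Serpina3n UMI. The C3 ratio of subcluster 0 to subcluster 4 went from 0.50 to 0.88 in library 4 alone, and the Serping1 ratio of pericyte-like cluster 24 to cluster 7 from 2.44 to 1.24. No paired analysis was possible because the library numbers are not tied to hemisphere or timepoint in the sources used here, so the 3 pairs of hemispheres could not be formed. Depth limits C3 and Serping1 in classes with few cells.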
